A study of Mus musculus with 6 samples.

Results

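The genes described here make, break down, regulate and carry polyamines. They were chosen for their function, with earlier results of these data known. By name these 10 genes are Odc1, Amd1, Srm, Sms, Arg2, Sat1, Smox, Oaz1, Azin1 and Atp13a3. Of these, 8 had a probeset annotated with exactly 1 gene symbol, out of 22180 genes with such a probeset. Each of the 8 had only 1, so no choice between probesets had to be made. All 8 were among the 14020 genes that passed the filter on dim probesets (at least 2 of the 6 arrays at or above the array's median). Amd1, whose product makes the aminopropyl donor for spermidine and spermine, is listed for no probeset in the annotation used here. Sms, the spermine synthase, shares its only listed probeset with the pseudogene Sms-ps and was not tested.

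The study profiled 3 groups of blastocysts on 6 Mouse Gene ST arrays, 2 per group, all from let7g-transgenic mice, with the RNA of 10 blastocysts behind each array. D4-act-7g blastocysts were activated on day 4, Dor-7g blastocysts were dormant in vivo on day 7, and DOX-7g blastocysts were dormant in vitro on day 7 after induction of let-7 with DOX. The labels used here give no promoter or founder line for the transgene, no way of activation, and nothing on whether both arrays of a group stem from different mice, so p-values measure only the spread between these arrays, which may be technical. Day and dormancy both separate Dor-7g from D4-act-7g, and day, dormancy, culture, DOX and let-7 all separate DOX-7g from it. Culture, DOX and let-7 together separate DOX-7g from Dor-7g. Within each comparison the effects of these factors cannot be told apart.

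Polyamines (putrescine, spermidine and spermine) are small positively charged molecules that bind nucleic acids and are needed for protein synthesis and growth. Arginase makes ornithine, ornithine decarboxylase (Odc1) turns it into putrescine, and spermidine and spermine synthases add aminopropyl groups. Antizyme (Oaz1) sends ornithine decarboxylase to the proteasome when polyamines are plentiful. In mink and mouse, polyamines have been linked to the exit of blastocysts from diapause, the reversible arrest before implantation, and mouse embryos without Odc1 die soon after implantation.

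The induced microRNA is shown because its induction is among the features that set the DOX-7g group apart by design, beside culture and DOX. The mature strand below is from RefSeq (GRCm38.p6, chr9:106178846-106178867, plus strand), written 5′ to 3′ with the seed, bases 2 to 8, in capitals. All 8 mature 5p strands of the let-7 family in that table carry this seed.
mmu-let-7g-5p: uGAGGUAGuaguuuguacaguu
The probeset for the Mirlet7g locus read 3.31 and 3.56 log2 units on D4-act-7g replicates 1 and 2, 3.50 and 3.59 on Dor-7g, and 3.46 and 3.20 on DOX-7g. These levels lay below the median of each array. D4-act-7g overlapped both other groups, and both DOX-7g arrays were below both Dor-7g arrays. Whether this probeset reads the transgene's transcript or the mature strand is not stated in the labels, so it does not check the induction.

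Arrays were compared before the members were read. The median over all 41345 probesets was 4.87 log2 units on Dor-7g replicate 1 and 4.62 to 4.67 on the other 5 arrays, and Dor-7g replicates differed by a median of 0.34 per probeset, against 0.20 in DOX-7g and 0.18 in D4-act-7g. Of 12 blastocyst markers, 10 lay above the median of all 6 arrays, among them Krt18 and Krt8, keratins of the trophectoderm, and only Sox2 lay below it on all 6. The summed log2 level of 10 blood and immune markers was 61.04 to 61.32 in DOX-7g, 47.67 to 52.57 in Dor-7g and 46.15 to 47.13 in D4-act-7g. For 9 uterine markers it was 43.95 to 44.34, 46.64 to 50.06 and 42.75 to 42.96 in the same order. No uterine marker passed in any comparison (limma). Of 6 tested, 2 had an unadjusted limma p under 0.05 for Dor-7g against D4-act-7g, where all genes gave 14.3%. For DOX-7g there was 1 against D4-act-7g and 1 against Dor-7g, where all genes gave 11% and 11.6%. The brightest uterine markers were Foxa2, of uterine glands, at 5.76 to 6.23, and the mucin gene Muc1, at 4.65 to 6.11. Dcn, a proteoglycan of stroma that was not tested, read 9.29 on Dor-7g replicate 2 and 3.67 to 4.22 on the other 5 arrays.

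**Figure D1:**
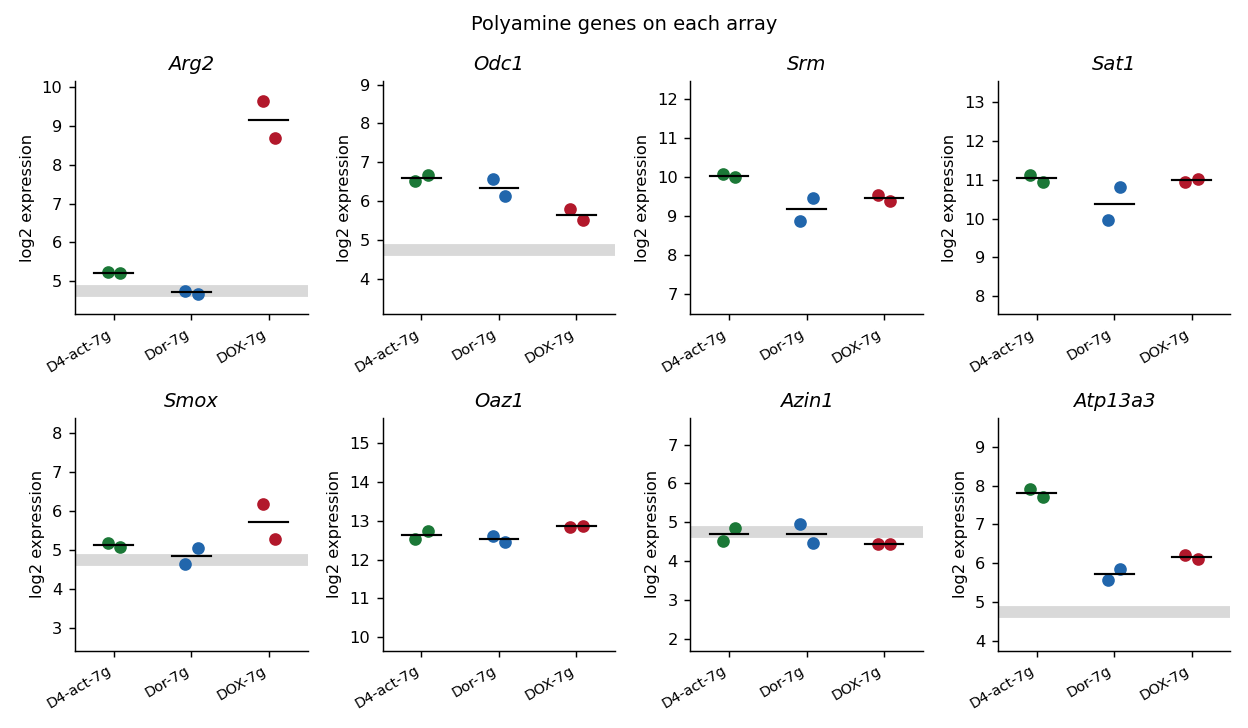
Log2 expression (y axis) of the 8 measured polyamine genes on each of the 6 arrays, by group (x axis); points are arrays, black lines are group means, every panel spans 6 log2 units, and the grey band marks the range of the array medians (4.62 to 4.87). Each panel is centred on its own gene, so the band lies below the panels of Srm, Sat1 and Oaz1 and is not seen there. Arg2 stands at 8.69 and 9.63 in DOX-7g and at or below 5.23 elsewhere, while Atp13a3 stands at 7.71 and 7.91 in D4-act-7g and at or below 6.21 elsewhere.

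Arg2 and Atp13a3 carried the differences that passed the test, and none of Odc1, Srm, Sat1, Smox, Oaz1 and Azin1 passed in any of the 3 comparisons. Between Dor-7g and D4-act-7g, 1 of 8 members passed limma's adjusted p threshold of 0.05, against 0.984% of all genes tested. Between DOX-7g and D4-act-7g 2 of 8 passed, against 0.956%, and between DOX-7g and Dor-7g 1 of 8 passed, against 1.16%. The last comparison is also the test of whether the changes of both dormant groups from D4-act-7g differ, since those changes share the D4-act-7g arrays.

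Arg2 encodes the mitochondrial arginase, which splits arginine into urea and ornithine, the precursor of putrescine. Its level was 5.23 and 5.22 log2 units on the D4-act-7g arrays, 4.75 and 4.68 on the Dor-7g arrays, and 9.63 and 8.69 on the DOX-7g arrays. Both DOX-7g arrays were far above the other 4, and the lower of them still exceeded the highest other array by 3.46. Arg2 rose by 3.94 ± 0.32 in DOX-7g against D4-act-7g (SE, n = 2 arrays each; 15.3-fold; limma, adjusted p = 0.00717). It was higher by 4.44 ± 0.32 in DOX-7g than in Dor-7g (21.8-fold; limma, adjusted p = 0.00369), and this difference passed with each array left out in turn. In every such fit the array left alone in its group is assumed to vary like the other groups, since the spread comes from those only. Against D4-act-7g, leaving out replicate 1 or 2 of D4-act-7g ended the call, although the change stayed at 3.94 and 3.93 (limma, adjusted p = 0.0741 without replicate 1 and 0.08 without replicate 2).

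In Dor-7g the Arg2 difference from D4-act-7g had the opposite sign and did not pass, at -0.51 with a 95% interval of -1.30 to 0.28 (limma, adjusted p = 0.524). Both Dor-7g arrays were below both D4-act-7g arrays, and the Dor-7g values lay close to the array median. The replicates of DOX-7g were 0.94 apart for Arg2, against 0.08 in Dor-7g and 0.01 in D4-act-7g. Leaving out DOX-7g replicate 1 gave a rise of 3.47 over D4-act-7g, and leaving out replicate 2 gave 4.4.

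Some transcripts of neutrophils were also high on both DOX-7g arrays, and others were not. S100a8, which pairs with S100a9 in a calcium-binding complex of neutrophils, read 3.28 and 3.16 in D4-act-7g, 2.81 and 7.18 on the Dor-7g arrays, and 10.91 and 10.12 in DOX-7g. S100a9 stood at 4.49 and 4.60 in D4-act-7g, 7.10 and 6.41 on the Dor-7g arrays, and 9.55 and 9.55 in DOX-7g. Ly6g, a neutrophil surface protein, was at 3.65 and 4.08, 3.75 and 4.25, and 7.41 and 7.39 in the same order. Of 7 blood and immune markers tested, 2 passed in DOX-7g against D4-act-7g, beside the 0.956% of all genes: S100a9 rose by 5.00 ± 0.26 (limma, adjusted p = 0.00112) and Ly6g by 3.54 ± 0.25 (limma, adjusted p = 0.00434). S100a8 had a larger difference, 7.30 ± 1.31, and did not pass (limma, adjusted p = 0.0949). These genes entered the test through the arrays where they were high: all 3 were below the array median in D4-act-7g, and Ly6g was at or above it only in DOX-7g, so the count of 2 supports nothing further. Ngp, a neutrophil granule protein, read 5.04 and 4.94 in D4-act-7g and 4.72 and 5.17 in DOX-7g (-0.05 ± 0.21; limma, adjusted p = 0.983), and Camp, another, was below the median at 3.21 and 3.23 in DOX-7g. S100a9 also rose in Dor-7g (2.21 ± 0.26, limma, adjusted p = 0.0274). In DOX-7g against Dor-7g 2 of the 7 passed, beside 1.16% of all genes, with the same limit on the count. They were S100a9 (2.79 ± 0.26, limma, adjusted p = 0.00988) and Ly6g (3.40 ± 0.25, limma, adjusted p = 0.00422). S100a8 did not pass there (5.52 ± 1.31, limma, adjusted p = 0.199). Ptprc, the CD45 antigen of white blood cells, lay between 3.57 and 3.82 and below the median of all 6 arrays, as did the macrophage marker Adgre1. Cd68, a lysosomal protein of macrophages and the marker of this list with the highest mean over the 6 arrays, read 8.04 and 9.34, 6.90 and 9.19, and 7.41 and 6.87 in the order D4-act-7g, Dor-7g, DOX-7g. The part of these cells in the Arg2 result was not tested, and in RNA of whole blastocysts a change in cell number and a change in RNA per cell cannot be told apart.

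The genes nearest to Arg2 in pattern were found by the root mean square difference over the 6 arrays after each gene's own mean was subtracted. They were Krtap4-13, a keratin-associated protein gene, at 0.26 log2 units, Zscan4e, of the 2-cell-like state, at 0.31, and Ccl3, a chemokine gene, at 0.32. Zscan4e read 3.02 and 3.23 in D4-act-7g, 2.89 and 2.84 on the Dor-7g arrays, and 7.98 and 7.48 in DOX-7g. Ccl3 read 5.05 and 4.76, 4.88 and 4.79, and 8.83 and 8.44 in the same order. All of them share with Arg2 a high level on both DOX-7g arrays and a lower one on replicate 2 than on replicate 1. For Arg2 these replicates, at 9.63 and 8.69, lay further apart than for Krtap4-13 (10.63 and 10.25), Zscan4e or Ccl3. This likeness describes 6 arrays in 3 groups and carries no test.

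**Figure D2:**
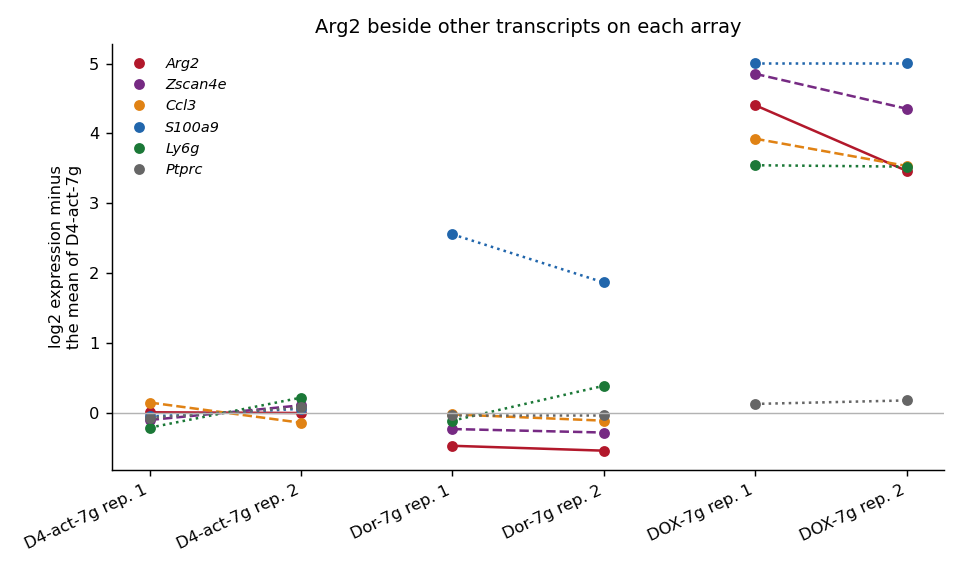
Log2 expression minus the gene's own mean in D4-act-7g (y axis) on each array (x axis) for Arg2, for Zscan4e and Ccl3, which are among the 3 genes nearest to it in pattern, and for the blood markers S100a9, Ly6g and Ptprc; lines join the arrays of a group. Arg2, Zscan4e, Ccl3 and Ly6g are high only on the DOX-7g arrays among the 6, S100a9 is also raised in Dor-7g, and Ptprc lies near 0 on all 6.

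Atp13a3 encodes an endolysosomal P-type ATPase that carries polyamines into the cytosol and takes part in their uptake. It read 7.91 and 7.71 log2 units in D4-act-7g, 5.58 and 5.84 on the Dor-7g arrays, and 6.21 and 6.11 in DOX-7g. All 4 dormant arrays lay below both D4-act-7g arrays, and the gap was 1.87 for Dor-7g and 1.5 for DOX-7g, wider than the spread within any group. In Dor-7g it fell by 2.10 ± 0.19 (SE, n = 2 each; 4.3-fold lower; limma, adjusted p = 0.0114). In DOX-7g it fell by 1.65 ± 0.19 (3.14-fold lower; limma, adjusted p = 0.0264). DOX-7g and Dor-7g differed by 0.45 with a 95% interval of -0.02 to 0.92 (limma, adjusted p = 0.443), so a smaller fall in DOX-7g was not shown.

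The fall in Dor-7g passed without Dor-7g replicate 1 (-1.97; limma, adjusted p = 0.0221) and without replicate 2 (-2.24; limma, adjusted p = 0.00581), and was lost without D4-act-7g replicate 1 (-2.0; limma, adjusted p = 0.146) or replicate 2 (-2.20; limma, adjusted p = 0.0979). The DOX-7g call was less firm: it ended with either array of D4-act-7g left out (-1.55 and -1.75; limma, adjusted p = 0.23 and 0.177 for replicates 1 and 2) and without DOX-7g replicate 1 (-1.70; limma, adjusted p = 0.143) or replicate 2 (-1.60; limma, adjusted p = 0.181). It was also lost after a second quantile normalization (-1.57; limma, adjusted p = 0.0523) and after centring each array on its median (-1.65; limma, adjusted p = 0.0556). The summed level of uterine markers given above was higher in both dormant groups than in D4-act-7g. Muc1, which is part of that sum, was higher on all 4 dormant arrays. Its differences were 0.99 ± 0.19 in Dor-7g and 1.22 ± 0.19 in DOX-7g (limma, adjusted p = 0.0981 and 0.0643). The other uterine markers tested changed by -0.08 (Esr1) to 0.33 (Foxa2) in DOX-7g and by 0.03 (Hand2) to 0.59 (Esr1) in Dor-7g. In Dor-7g the sum also holds Dcn, at 9.29 on replicate 2 and 4.22 on replicate 1. The part of uterine cells in the Atp13a3 result was not tested.

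Odc1 encodes ornithine decarboxylase, the rate-limiting enzyme of polyamine synthesis and a classic target of Myc. Its level was 6.51 and 6.68 log2 units in D4-act-7g, 6.56 and 6.12 on the Dor-7g arrays, and 5.79 and 5.50 in DOX-7g. DOX-7g was below all other arrays, while Dor-7g overlapped D4-act-7g. The difference of DOX-7g from D4-act-7g was -0.95 ± 0.23 (SE, n = 2 each), with a 95% interval of -1.51 to -0.39, and missed the threshold over all genes (limma, adjusted p = 0.185). It passed in 1 of 17 alternative settings, with array weights (limma, adjusted p = 0.0449). For Dor-7g the difference was -0.25 with an interval of -0.81 to 0.31 (limma, adjusted p = 0.643), and DOX-7g minus Dor-7g was -0.70 with an interval of -1.26 to -0.14 (limma, adjusted p = 0.341). Without Dor-7g replicate 1 or 2, the Dor-7g difference was -0.47 or -0.03, and DOX-7g minus Dor-7g was -0.48 or -0.92. The group means ran from D4-act-7g through Dor-7g to DOX-7g, the distance of Dor-7g from D4-act-7g came almost wholly from its replicate 2, and no neighbouring pair in this order passed the test.

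The genes nearest to Odc1 in pattern by the same measure were Slc22a16, a carrier of organic cations and carnitine, at 0.08 log2 units, and Snhg11 and Tmem82 at 0.10 each. Slc22a16 read 5.90 and 6.16 in D4-act-7g, 6.01 and 5.48 on the Dor-7g arrays, and 5.25 and 5.10 in DOX-7g. As with Odc1, DOX-7g was lowest and Dor-7g replicate 1 read above replicate 2. Slc22a16 was picked for this likeness on the same arrays, so it carries no test.

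Srm, the spermidine synthase, which joins an aminopropyl group to putrescine, read 10.07 and 10.01 in D4-act-7g, 8.88 and 9.46 on the Dor-7g arrays, and 9.54 and 9.38 in DOX-7g. All 4 dormant arrays lay below both D4-act-7g arrays. The differences were -0.87 ± 0.24 in Dor-7g (95% interval -1.46 to -0.28; limma, adjusted p = 0.199) and -0.59 ± 0.24 in DOX-7g (interval -1.17 to 0; limma, adjusted p = 0.456), and neither passed. Without Dor-7g replicate 1 the Dor-7g difference was -0.58. Without replicate 2 it was -1.16 and past the threshold (limma, adjusted p = 0.0276), but this sets 1 array, the lower, against D4-act-7g with a spread taken only from the other groups. The probeset that Sms shares with Sms-ps read 6.69 and 6.72 in D4-act-7g, 6.15 and 6.23 on the Dor-7g arrays, and 6.63 and 6.0 in DOX-7g. It was lower on both Dor-7g arrays and split between the DOX-7g arrays, and which of these loci it measured is uncertain.

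**Figure D3:**
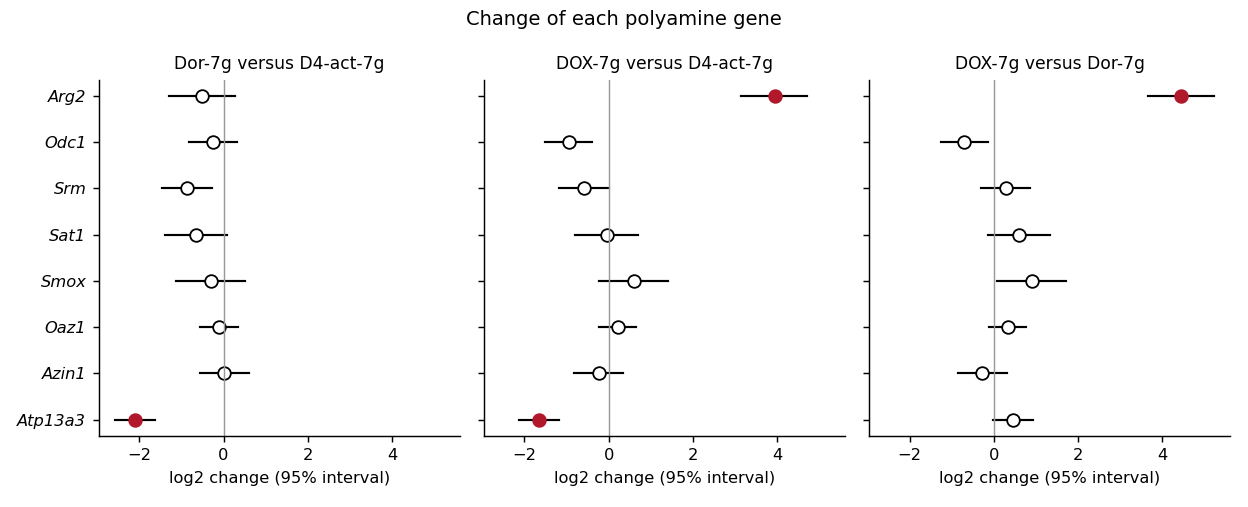
Log2 change (x axis) of the 8 measured polyamine genes (y axis) in the 3 comparisons, first group minus second, with limma's 95% interval as a line; filled red points passed the adjusted p threshold of 0.05 over all 14020 genes. Arg2 passed in both comparisons of DOX-7g (3.94 and 4.44) and Atp13a3 in both comparisons with D4-act-7g (-2.10 and -1.65), and the other 6 genes are open points.

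Of the enzymes of breakdown, Sat1 acetylates spermidine and spermine for export or oxidation, and Smox oxidises spermine back to spermidine. Sat1 was bright on all arrays, at 11.12 and 10.95 in D4-act-7g, 9.96 and 10.80 on the Dor-7g arrays, and 10.94 and 11.02 in DOX-7g. Dor-7g replicate 1 alone stood low. The difference of Dor-7g from D4-act-7g was -0.65 ± 0.30 (limma, adjusted p = 0.401); it was -0.23 without Dor-7g replicate 1 and -1.07 without replicate 2, so its size rests on replicate 1. The value of -1.07 was past the threshold (limma, adjusted p = 0.0345), but Dor-7g is then that 1 low array and the spread comes only from the other groups. DOX-7g differed from D4-act-7g by -0.05 with an interval of -0.79 to 0.69 (limma, adjusted p = 0.986). Against Dor-7g, DOX-7g was at 0.60 ± 0.30 (limma, adjusted p = 0.505), at 0.17 without Dor-7g replicate 1, and at 1.02 and past the threshold without replicate 2 (limma, adjusted p = 0.0451), with the same limit.

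Smox read 5.19 and 5.09 in D4-act-7g, 4.63 and 5.04 on the Dor-7g arrays, and 6.18 and 5.28 in DOX-7g. The groups did not overlap and ran in the order Dor-7g, D4-act-7g, DOX-7g, but the DOX-7g replicates were 0.90 apart. The differences were 0.59 ± 0.33 for DOX-7g against D4-act-7g (limma, adjusted p = 0.639), -0.31 ± 0.33 for Dor-7g (limma, adjusted p = 0.701) and 0.90 ± 0.33 for DOX-7g against Dor-7g (limma, adjusted p = 0.403). All 3 moved by over 1.5 times with 1 array left out. Without DOX-7g replicate 1 or 2 the difference from D4-act-7g was 0.14 or 1.04 and that from Dor-7g was 0.45 or 1.35. Without Dor-7g replicate 1 or 2 the Dor-7g difference was -0.10 or -0.51, and DOX-7g against Dor-7g was 0.70 or 1.10. On DOX-7g replicate 1 both Smox and Arg2 were higher than on replicate 2.

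Neither antizyme nor its inhibitor passed in any comparison. Oaz1, whose translation needs a frameshift that polyamines favour, was at 12.52 and 12.74 in D4-act-7g, 12.60 and 12.44 on the Dor-7g arrays, and 12.84 and 12.86 in DOX-7g. DOX-7g was above the other arrays by a narrow gap of 0.10 over D4-act-7g, a difference of 0.22 with an interval of -0.22 to 0.66 (limma, adjusted p = 0.801), and Dor-7g overlapped D4-act-7g at -0.11 with an interval of -0.55 to 0.34 (limma, adjusted p = 0.809; -0.19 or -0.02 without Dor-7g replicate 1 or 2). A second probeset, annotated to both Oaz1 and Oaz1-ps, read 13.22 and 13.27 in D4-act-7g, 10.54 and 12.49 on the Dor-7g arrays, and 13.25 and 13.22 in DOX-7g. It was lower on both Dor-7g arrays than on every other array, and lowest on replicate 1, where the single-symbol probeset was not low. This second probeset was not tested.

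Azin1, an enzymatically inactive relative of ornithine decarboxylase that binds antizyme, read 4.51 and 4.86 in D4-act-7g, 4.95 and 4.46 on the Dor-7g arrays, and 4.43 and 4.45 in DOX-7g. It reached the array median on only 2 of 6 arrays, so these levels are dim. The DOX-7g arrays were lowest, by 0.02 at the nearest Dor-7g array and 0.06 at the nearest D4-act-7g array. Differences were 0.02 (interval -0.56 to 0.61; limma, adjusted p = 0.972) in Dor-7g, which was -0.22 without Dor-7g replicate 1 and 0.27 without replicate 2, and -0.24 (interval -0.83 to 0.34; limma, adjusted p = 0.852) in DOX-7g.

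Across the 8 genes, the median change was -0.41 in Dor-7g against D4-act-7g, where the median of all genes was 0.06, and 7 of 8 changes were below 0. It was -0.15 in DOX-7g against D4-act-7g, with 5 of 8 below 0 and a median of all genes of -0.05. In DOX-7g against Dor-7g it was 0.39, with 6 of 8 above 0, where the median of all genes was -0.11. The median size of change, without sign, was 0.41, 0.59 and 0.52 in these comparisons, against 0.26, 0.20 and 0.25 for all genes. Arrays of the groups compared did not overlap for 5, 7 and 7 of the 8 genes, while this held for 45.8%, 49.7% and 41.7% of all genes tested. These members were chosen with earlier results known, so their counts carry no test.

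Genes of the pathways around polyamines were described from 5 further lists holding 56 genes, of which 48 had a single-symbol probeset and 37 were tested. No gene of these lists passed limma's adjusted threshold in any of the 3 comparisons. At an unadjusted p under 0.05 there were 7 of 37 (18.9%) in Dor-7g against D4-act-7g, where all genes gave 14.3%. There were 4 (10.8%) in DOX-7g against D4-act-7g, where all genes gave 11%, and 0 in DOX-7g against Dor-7g, where all genes gave 11.6%. Amd2, a close relative of Amd1, the S-adenosylmethionine synthetase gene Mat2a and the polyamine oxidase gene Paox were not analysed here.

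Among the other enzymes and regulators of polyamines, 6 of 9 were tested. Agmat, a member of the agmatinase family, for which a route from agmatine to putrescine is described in bacteria, read 7.83 and 8.12 in D4-act-7g, 7.67 and 6.85 on the Dor-7g arrays, and 6.43 and 6.62 in DOX-7g. Its levels in DOX-7g were below all other arrays, at -1.45 ± 0.31 against D4-act-7g (limma, adjusted p = 0.144), and at -0.71 ± 0.31 in Dor-7g (limma, adjusted p = 0.375). Arg1, the cytosolic arginase of liver and macrophages, read 5.02 and 5.01 in DOX-7g and 4.94 and 4.85 in D4-act-7g, a difference of 0.12 ± 0.21 (limma, adjusted p = 0.94), and it read 5.71 and 5.27 in Dor-7g (0.60 ± 0.21; limma, adjusted p = 0.281). Oaz3, the testis antizyme, was at 0.54 ± 0.30 in DOX-7g (limma, adjusted p = 0.628). Oaz2, another antizyme, read 7.19 on Dor-7g replicate 1 and 10.07 to 10.72 on the other 5 arrays.

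Among carriers of polyamines and arginine, 6 of 13 were tested. Slc7a3, a cationic amino acid carrier that brings in arginine, passed the filter on dim probesets only through the dormant arrays. It read 3.94 and 4.29 in D4-act-7g, 5.08 and 5.38 on the Dor-7g arrays, and 5.42 and 5.43 in DOX-7g. All 4 dormant arrays were above both D4-act-7g arrays, where the gene lay below the array median, and the differences were 1.12 ± 0.21 in Dor-7g (limma, adjusted p = 0.097) and 1.31 ± 0.21 in DOX-7g (limma, adjusted p = 0.0714). Slc47a1, which exports organic cations, was at 0.68 ± 0.22 in Dor-7g (limma, adjusted p = 0.243) and 0.38 ± 0.22 in DOX-7g (limma, adjusted p = 0.653). Slc22a2, an organic cation carrier, was at -0.22 ± 0.17 in DOX-7g against Dor-7g (limma, adjusted p = 0.616). Atp13a2, the lysosomal polyamine exporter related to Atp13a3, lay between 5.10 and 5.52 on all 6 arrays, with differences of 0.06 and -0.03 (limma, adjusted p = 0.92 and 0.989). Atp13a4 and Atp13a5, of the same family, did not pass the filter on dim probesets.

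**Figure D4:**
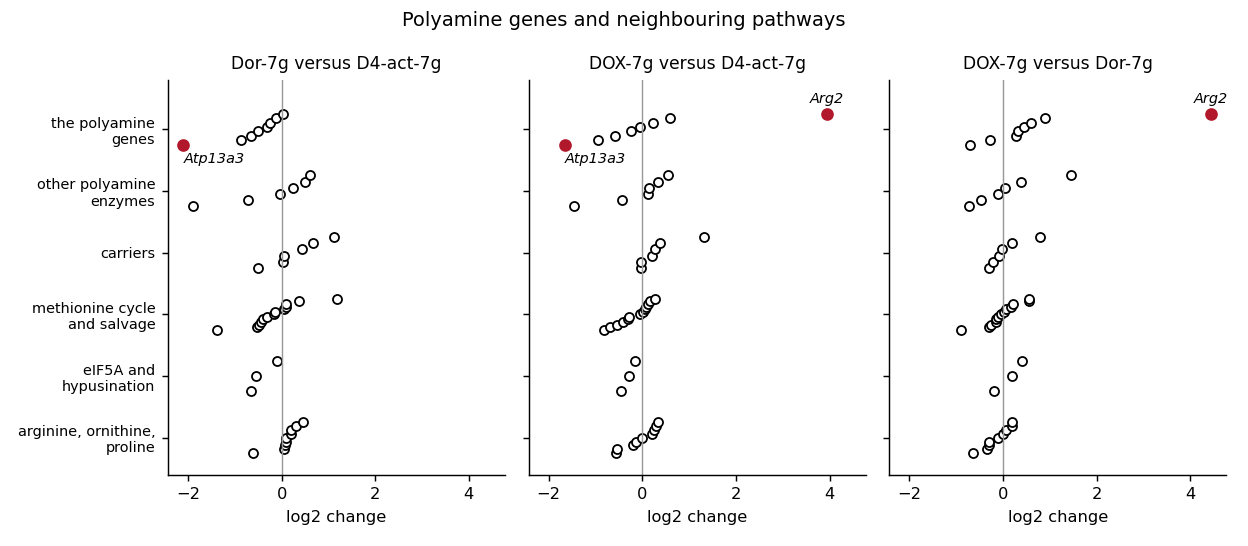
Log2 change (x axis), first group minus second, of each tested gene of the polyamine set and of the 5 further lists (y axis) in the 3 comparisons; each point is a gene, and red points with names passed limma's adjusted p threshold of 0.05 over all genes. Arg2 and Atp13a3 are the named points, and none of the 37 genes of the further lists passed.

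The methionine cycle supplies the aminopropyl groups of spermidine and spermine, and a salvage route recovers the methylthioadenosine left over; 13 of the 15 genes listed were tested. Ahcy, which hydrolyses S-adenosylhomocysteine, read 7.97 and 8.02 in D4-act-7g, 6.74 and 6.51 on the Dor-7g arrays, and 7.68 and 6.67 in DOX-7g, a difference of -1.37 ± 0.34 in Dor-7g (limma, adjusted p = 0.169). Apip, of the salvage route, was at 1.18 ± 0.37 in Dor-7g (limma, adjusted p = 0.238) and at -0.90 ± 0.37 in DOX-7g against Dor-7g (limma, adjusted p = 0.431). It read 8.04 and 8.25 in D4-act-7g, 9.79 and 8.85 on the Dor-7g arrays, and 8.12 and 8.71 in DOX-7g. Dor-7g replicate 1 stood highest, and replicate 2 lay close to the higher DOX-7g array. Enoph1 and Mri1, both of the salvage route, were at -0.69 ± 0.22 and -0.55 ± 0.19 in DOX-7g against D4-act-7g (limma, adjusted p = 0.322 and 0.38). Mtrr, which reactivates methionine synthase, was at 0.56 ± 0.23 in DOX-7g against Dor-7g (limma, adjusted p = 0.432).

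Spermidine also provides the hypusine residue of the translation factor eIF5A, and 3 of the 4 genes of this modification were tested. All 3 changes were below 0 in both comparisons with D4-act-7g, but Dohh was at only -0.09 in Dor-7g and Eif5a at -0.15 in DOX-7g. Their median change was -0.55 in Dor-7g and -0.28 in DOX-7g, where the median of all genes was 0.06 and -0.05. The direction of these 3 genes was not tested. Dhps, which starts the modification, was at -0.66 ± 0.25 in Dor-7g (limma, adjusted p = 0.33) and -0.46 ± 0.25 in DOX-7g (limma, adjusted p = 0.63). Eif5a itself was at -0.55 ± 0.27 in Dor-7g (limma, adjusted p = 0.422), and Dohh, which completes hypusine, at -0.28 ± 0.20 in DOX-7g (limma, adjusted p = 0.73). On Dor-7g replicates 1 and 2, Dhps read 9.74 and 10.41, against 10.74 and 10.72 in D4-act-7g. Eif5a read 7.05 and 7.59, against 7.72 and 8.01, so replicate 1 was the lower Dor-7g array for both.

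Of 15 genes of arginine, ornithine and proline metabolism, 9 were tested, and their median change was 0.09 in Dor-7g and 0 in DOX-7g against D4-act-7g. Ass1, which makes argininosuccinate on the way to arginine, was at -0.57 ± 0.27 in DOX-7g against D4-act-7g (limma, adjusted p = 0.551) and -0.64 ± 0.27 against Dor-7g (limma, adjusted p = 0.445). The nitric oxide synthases, which also consume arginine, were near the array median, with Nos1 at 0.45 ± 0.22 and Nos2 at 0.31 ± 0.23 in Dor-7g (limma, adjusted p = 0.427 and 0.582). Nos3 was at -0.29 ± 0.19 in DOX-7g against Dor-7g (limma, adjusted p = 0.57). Oat, which links ornithine to glutamate and proline, differed by 0.09 in Dor-7g and 0.29 in DOX-7g (limma, adjusted p = 0.929 and 0.914). No enzyme on either side of arginase in these lists passed where Arg2 did.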

How the data were processed

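The authors deposited 1 table of log2 expression values, 41345 probesets on 6 Mouse Gene ST arrays, with values from 1.52 to 14.18. These log2 values were made with Partek 6.6 and RMA, per the submitters' processing notes, which give no settings; RMA corrects background, normalizes between arrays and summarizes probes on the log2 scale, which compresses differences near background. Embryos (10 per array) were heated in water to free their RNA, which carried a biotin label, per the labels' protocols. The probesets' genome build is not stated in the labels. The number of arrays limits the precision, and no detection calls were used.

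The sample titles gave groups and replicate numbers. The platform annotation named the probesets, with symbols updated by Entrez identifier in a RefSeq table (GRCm38.p6, names only): 23521 had 1 symbol, 1814 several and 16010 are unnamed here, and 193 identifiers were not matched. Single-symbol probesets with at least 2 of 6 arrays at or above the array median were kept, the brightest per gene, which left 14020 genes. One mean per group was fitted to all 6 arrays in limma 3.58.1 (R 4.3.3) with eBayes (3 residual and 2.81 prior degrees of freedom), Benjamini-Hochberg adjustment over all genes within a comparison, and a threshold of 0.05. The fit was tested on simulated data. The text names every member, and of each further list the 2 genes with the smallest p per comparison. Of each marker list it names those past the threshold and the brightest 2. It also names the 3 genes nearest in pattern to Odc1 and to Arg2, the member with the largest moderated F. Predicted genes were left out of these nearest genes. Esr1, Hand2, Atp13a4, Atp13a5 and the differences of Muc1 are given outside this rule. Oaz2, Atp13a2, Oat, S100a8, Ngp, Camp, Ptprc, Adgre1, Dcn, Sox2, Slc7a3's levels and Arg1 in DOX-7g were added after their values were seen. The members and lists were chosen with earlier results of these data known. Alternatives covered normalization, filter, probeset rule, variance model, array weights, replicate block, arrays in the fit, threshold and leaving out each array.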

Additional observations from a re-analysis of the deposited data

Results flagged for a closer look

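Arg2 moved differently in both kinds of dormant blastocyst. Its change from D4-act-7g was 3.94 log2 units in DOX-7g and -0.51 in Dor-7g, and the test of the difference between these, DOX-7g against Dor-7g, gave 4.44 ± 0.32 (SE, n = 2 arrays each; limma, adjusted p = 0.00369). No other of the 8 members passed that test.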

How the results depend on the processing

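Each value of a single member was set against 17 alternatives, or 16 for Azin1, which the stricter filter of 4 arrays removed. Of these 405 values, 383 kept direction and side of the threshold, 11 lost a call, 4 gained a call and 7 changed sign. Direction could not change with the filter, probeset rule, variance model, threshold, array weights, replicate block or only the groups compared. Each leaves a member's log2 change as it was, as does leaving out an array outside the comparison. The count of 383 is therefore partly fixed in advance and does not measure robustness. The sign changes were all of values that did not pass: Azin1 in Dor-7g against D4-act-7g (-0.10 after a second quantile normalization, -0.11 with arrays centred on their medians, -0.15 without D4-act-7g replicate 1, -0.22 without Dor-7g replicate 1), Oaz1 there (0 without D4-act-7g replicate 2), Sat1 in DOX-7g against D4-act-7g (0.03 without D4-act-7g replicate 1) and Srm in DOX-7g against Dor-7g (0 without Dor-7g replicate 1). With each array left out in turn these values ran from -0.22 to 0.27 for Azin1 and from 0 to 0.57 for Srm.

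Leaving out each array in turn gave 0 to 3 members called in Dor-7g against D4-act-7g, 0 to 2 in DOX-7g against D4-act-7g and 1 to 2 in DOX-7g against Dor-7g, and 11 to 1172, 43 to 296 and 67 to 880 genes called in the same order. In DOX-7g against D4-act-7g only 1 member, Arg2, was called after a second quantile normalization, after centring or with the replicate block. With array weights the genes called were 79, 461 and 104, with only the arrays of the groups compared 86, 296 and 86, and at a threshold of 0.10 they were 319 and 244 in both comparisons with D4-act-7g. With the replicate number as a block 82 genes were called in Dor-7g against D4-act-7g; same-numbered arrays did not deviate together (r across genes of -0.02, -0.01 and -0.14), and the labels give no pairing, so the number pairs nothing. The causes were not tested. No member that differed by under 1 log2 unit passed at the settings of the report, and the dim Azin1 was read near background.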
